A study of Mus musculus with 16 samples.

Results

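The 6 genes described here mark or equip mast cells and were followed through brushed airway epithelium of mice: the receptor genes Il1rl1, Fcer1a, Ms4a2, Kit and Mrgprb2 and the transcription factor gene Gata2. They were chosen by symbol, through the RefSeq accession that the array files give for each probe. Of these 6 members, 5 had a matched probe, with 8 of the 41174 probes among them, and 4 entered the fit of 18566 genes and transcripts. No probe was matched to Kit, which is not analysed here. Ms4a2 was too dim for the fit and is described on a linear scale.

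The mice were of the FvB strain and 6 to 8 weeks old when sensitization began. The knockout (ko) lacks Itgb6, which encodes the integrin subunit beta6, and the comparison strain was wild type (wt). How the allele was made is not given in the sources used here. The wt_OVA and ko_OVA groups received 20 ug of ovalbumin (OVA), an egg protein used as an allergen, into the peritoneum on days 1, 4 and 7. They then received 10 ug into the nose weekly for 9 weeks. The wt_saline and ko_saline groups received saline on the same schedule, and tissue was taken 24 h after the last dose in all 4 groups. Each group had 4 one-colour arrays, 16 in all. The labels call the arrays replicates and do not say whether each came from 1 mouse, so p-values measure the spread between these samples, which may be technical.

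Mast cells are tissue-resident cells of the allergic response. IgE bound to the high-affinity receptor on their surface triggers release of granules when an allergen crosslinks it, and the alpha chain of that receptor (Fcer1a) holds the IgE while the beta chain (Ms4a2) amplifies the signal. Il1rl1 encodes ST2, the receptor for the epithelial alarm cytokine IL-33. Mrgprb2 encodes a receptor through which cationic peptides and some drugs activate mast cells without IgE, and it is known from mast cells of the connective tissue type. Kit is the receptor for stem cell factor, on which mast cells depend, and Gata2 is needed for their development and binds DNA at GATA words.

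Since Gata2 binds DNA at GATA words, the DNA before the starts of the receptor genes that hold such words there is shown. Whether Gata2 acts on these genes was not tested. Each line gives the 250 bases before an annotated start on GRCm38.p6, 5′ to 3′ on the strand of the gene, from RefSeq. Capitals mark the word AGATAA, its variant AGATAG, the word TGATAA or its variant TGATAG on either strand. Il1rl1 has windows at 2 starts, the upstream one at chr1:40429320-40429569 and the downstream one at chr1:40439379-40439628, both on the plus strand. The windows of Fcer1a at chr1:173227230-173227479, Ms4a2 at chr19:11623720-11623969 and Mrgprb2 at chr7:48558087-48558336 lie on the minus strand.
Il1rl1 upstream start: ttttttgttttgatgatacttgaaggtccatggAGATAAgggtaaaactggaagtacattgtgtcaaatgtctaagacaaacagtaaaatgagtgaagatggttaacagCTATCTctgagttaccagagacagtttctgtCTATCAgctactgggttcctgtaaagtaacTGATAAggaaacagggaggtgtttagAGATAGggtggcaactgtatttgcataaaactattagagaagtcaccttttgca
Il1rl1 downstream start: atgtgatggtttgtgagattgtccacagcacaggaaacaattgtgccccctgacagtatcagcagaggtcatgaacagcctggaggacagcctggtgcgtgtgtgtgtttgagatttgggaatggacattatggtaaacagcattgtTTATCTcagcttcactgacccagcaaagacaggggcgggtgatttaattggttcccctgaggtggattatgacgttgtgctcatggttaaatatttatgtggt
Fcer1a: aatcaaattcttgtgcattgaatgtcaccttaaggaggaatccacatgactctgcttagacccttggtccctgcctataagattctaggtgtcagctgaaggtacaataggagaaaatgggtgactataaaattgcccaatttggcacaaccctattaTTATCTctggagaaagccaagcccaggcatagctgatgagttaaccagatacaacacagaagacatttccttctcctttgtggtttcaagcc
Ms4a2: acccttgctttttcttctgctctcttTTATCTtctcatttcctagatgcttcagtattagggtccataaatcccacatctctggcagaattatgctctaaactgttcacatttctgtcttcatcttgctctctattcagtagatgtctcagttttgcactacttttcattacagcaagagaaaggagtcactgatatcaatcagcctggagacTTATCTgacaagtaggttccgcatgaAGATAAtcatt
Mrgprb2: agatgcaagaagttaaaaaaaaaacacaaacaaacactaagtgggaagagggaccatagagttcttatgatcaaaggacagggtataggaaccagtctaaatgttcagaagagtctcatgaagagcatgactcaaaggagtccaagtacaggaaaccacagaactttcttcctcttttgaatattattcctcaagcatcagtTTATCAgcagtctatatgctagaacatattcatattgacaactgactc

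The upstream Il1rl1 window held 5 GATA words, the Ms4a2 window 3, and the downstream Il1rl1, Fcer1a and Mrgprb2 windows 1 each. Of 32851 windows of the same length, 26.5% held at least 1 such word, 6.4% at least 2, 1.35% at least 3 and 0.0426% at least 5. The windows at the starts of Gata2 and Kit held 0 words. A match describes the letters in these windows and is no evidence of binding.

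Levels are given as log2 of the processed signal relative to the 75th percentile of the same array, so a level of 0 equals that percentile. Values under -3.32, the lowest level that every array could call well above background, were set to -3.32 and are called the floor. The percentile itself was lowest on ko_OVA 4, at 78.0 intensity units, and highest on ko_saline 3, at 793. Between 43.3% (ko_OVA 4) and 74.5% (wt_OVA 1) of probes exceeded background clearly, as the scanner software judged it. Epcam, Cdh1 and Krt8, which mark epithelium, were well above background on all 16 arrays. The probe of Itgb6 in the fit differed between genotypes by -0.11 after saline (adjusted p = 0.971) and -0.58 after OVA (adjusted p = 0.547), and the files do not say whether its probes lie in the disrupted part. Cpa3, the carboxypeptidase of mast cell granules and a check of the cell type, had group means of -2.45 ± 0.67 and -0.20 ± 0.48 in wt after saline and OVA, and of 2.75 ± 0.20 and 2.64 ± 0.24 in ko (SD, n = 4 each). In bulk RNA, fewer cells of a type and less RNA per cell cannot be told apart.

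Setting ko against wt after saline asks how the epithelium differs without allergen. Il1rl1, Gata2 and Fcer1a were higher in ko. Mrgprb2 passed the test as well, but it met the filter on dim probes through its ko arrays alone, so its direction was set by that filter and its values are a description. Over all genes tested 0.124% were called higher in this comparison, by limma with Benjamini-Hochberg adjustment at 0.05 over the 18566 genes and transcripts. The median log2 difference, given as a description since it includes Mrgprb2, was 2.81 over the 4 fitted members and 0.00 over all genes.

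Il1rl1, the gene of the IL-33 receptor, stood on its fitted probe at -2.23, -2.41, -3.32 and -1.69 on wt_saline arrays 1 to 4 and at 0.05, -0.32, -0.17 and -0.13 on the wt_OVA arrays. In ko the levels were 1.99, 1.53, 1.63 and 1.76 after saline and 1.61, 2.16, 1.75 and 3.09 after OVA. The lowest ko array lay above the highest wt array, whereas the ko groups overlapped. The wt_saline and wt_OVA arrays did not overlap either, but the share of all genes that separated with OVA in wt is not given here. Ko exceeded wt by 4.14 ± 0.32 after saline (SE, 4 against 4 arrays, adjusted p = 7.99e-06). This is a 17.6-fold difference of the fitted means, with a 95% interval of 3.44 to 4.83 on the log2 scale.

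Fcer1a, the IgE-binding chain, lay at the floor on each of the 4 wt_saline arrays, 1 of which called it well above background. The wt_OVA arrays gave -2.32, -3.32, -2.68 and -2.64. Levels in ko were -0.56, -0.75, -0.24 and -1.0 after saline and -0.33, 0.08, -0.42 and 0.00 after OVA. Every ko array was above every wt array, and the ko groups overlapped. The fitted difference after saline was 2.68 ± 0.20 (adjusted p = 4.02e-06). Since the floor hides how low wt_saline was, the difference was also taken against the dimmest signal each wt_saline array could call, or the probe's own value where that was higher: by that measure, on means of log2 levels (-0.64 in ko_saline and at most -4.65 in wt_saline), Fcer1a was at least 16.1-fold higher in ko_saline. All folds given as "at least" compare means of log2 levels in this way, not means of linear signals.

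Gata2, the transcription factor, lay at the floor on each of the 4 wt_saline arrays too, and 1 of them called it well above background. On the wt_OVA arrays it stood at -1.75, -2.34, -2.57 and -2.72. Levels in ko were -0.21, -0.12, -0.16 and -1.04 after saline and -0.53, -0.54, -0.74 and 0.42 after OVA. As for Fcer1a, the genotypes did not overlap and the ko groups did. The fitted difference after saline was 2.94 ± 0.27 (adjusted p = 4.03e-05), and by the measure against the dimmest callable signal Gata2 was at least 15.1-fold higher. Another Gata2 probe gave the same order on the linear scale, with means of 4.38 ± 1.46, 14.5 ± 5.72, 48.7 ± 3.43 and 50.7 ± 15.6% of the 75th percentile in wt_saline, wt_OVA, ko_saline and ko_OVA. Its ko_saline and wt_saline arrays did not overlap (exact permutation p = 0.0286, two-sided, the smallest that 4 against 4 allows, and 0.114 after Benjamini-Hochberg adjustment over 16 tests of probes outside the fit). A few tests at that p could not pass over 16 tests, so the lack of a pass does not show that nothing changed.

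Mrgprb2, the receptor for cationic secretagogues, was at the floor on all 8 wt arrays, and none called it well above background. The ko arrays gave -2.01, -2.58, -2.51 and -2.65 after saline and -2.56, -2.52, -2.97 and -2.14 after OVA, and all 8 called it well above background. Only 3 probes of 41174 on the array, 0.00729%, had that pattern of 8 ko arrays and no wt array, and the others were a probe of Pla2r1 and 1 probe without a symbol. The filter kept this probe through its 8 ko arrays only, so a difference had to follow and the test is no support for one. The fitted difference after saline was 0.88 ± 0.15 (adjusted p = 0.0349), and Mrgprb2 was at least 6.46-fold higher in ko_saline. This call was lost when any wt_saline array was left out, and also without wt_OVA 2, 3 or 4, ko_saline 1, 2 or 3, or ko_OVA 1 or 2, with adjusted p from 0.0518 to 0.126. It was lost too with no filter (adjusted p = 0.106), with outlier spots kept (0.0559), with wt_saline and ko_saline alone in the fit (0.124) and with array position as a block (0.976). Without ko_OVA 4, the weakest array, which sets the floor, the difference was 1.78 (adjusted p = 8.86e-06), and there Fcer1a had 3.41 and Gata2 3.70.

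**Figure D1:**
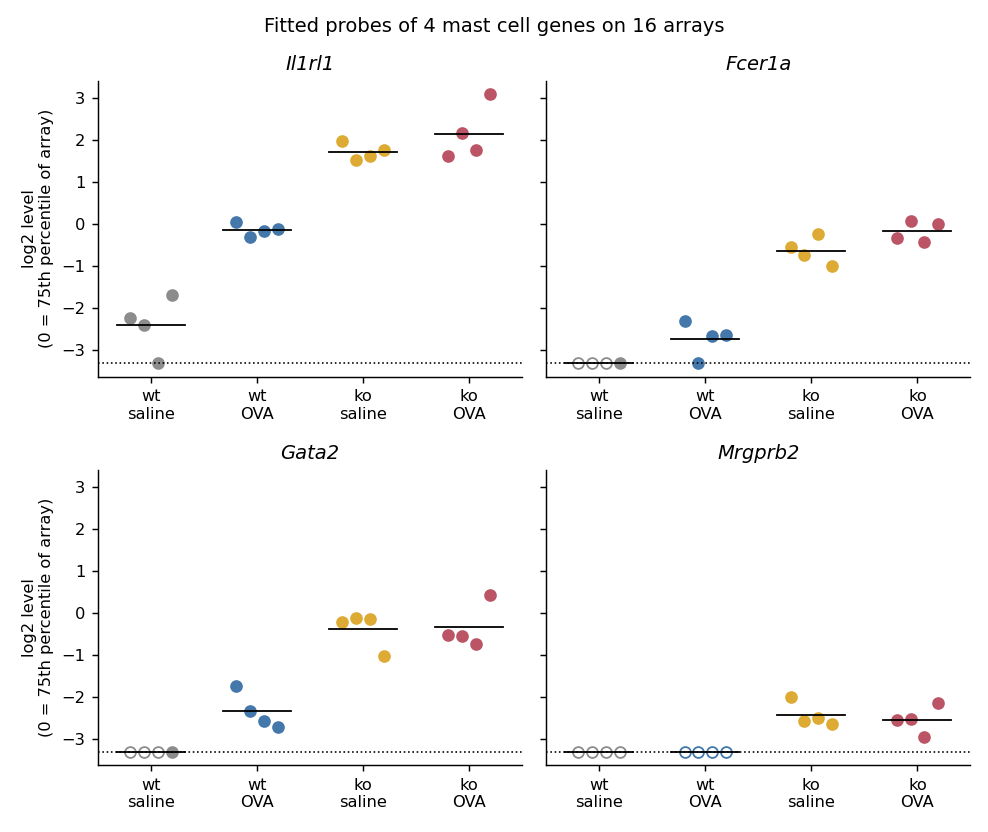
Log2 level relative to the 75th percentile of the array (vertical axis) in 4 groups of 4 arrays (horizontal axis) for the fitted probes of Il1rl1, Fcer1a, Gata2 and Mrgprb2. Points are arrays, open where the probe was not well above background, bars are group means and the dotted line is the floor at -3.32. For all 4 genes the 8 ko arrays lie above the 8 wt arrays, which for Mrgprb2 the filter fixed.

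Ms4a2, the beta chain of the IgE receptor, stayed under the floor on all 16 arrays and was compared as a percent of the 75th percentile without a floor. Its arrays gave 1.31, 2.29, 0.477 and 0.307% in wt_saline and 6.87, 3.34, 1.28 and -0.396% in wt_OVA. They gave 6.19, 5.87, 5.40 and 6.43% in ko_saline and 5.69, 5.78, 3.95 and 5.14% in ko_OVA. The ko_saline arrays lay above all wt_saline arrays (exact permutation p = 0.0286, two-sided, 0.114 after adjustment over 16 tests), while wt_OVA overlapped both ko groups. As for the dimmer Gata2 probe, so few arrays could hardly pass over 16 tests, and the lack of a pass does not decide the question. The probe was well above background on 0, 2, 3 and 2 arrays of wt_saline, wt_OVA, ko_saline and ko_OVA. Against the dimmest callable signal and on means of log2 levels (-4.07 in ko_saline and at most -5.13 in wt_saline), Ms4a2 was at least 2.08-fold higher in ko_saline. That ko_saline mean includes an array on which the probe was not well above background.

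The other probes of Il1rl1, 2 in number, carry a different RefSeq transcript of the gene and were under the floor on all 16 arrays. The gene is known to give a membrane-bound receptor and a shorter secreted form from separate transcripts, and which form each of the 3 probes reads is not known here. The first of these dim probes gave -0.538 ± 1.2% in wt_saline and 1.79 ± 1.09% in ko_saline (exact permutation p = 0.0571, two-sided, 0.183 after adjustment). The remaining one gave 0.807 ± 0.992% and 0.813 ± 0.826% in the same groups (exact permutation p = 0.943, two-sided, 0.971 after adjustment). These probes were well above background on 2 and 1 of 16 arrays, so the difference of the fitted probe was not detectable on them.

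**Figure D2:**
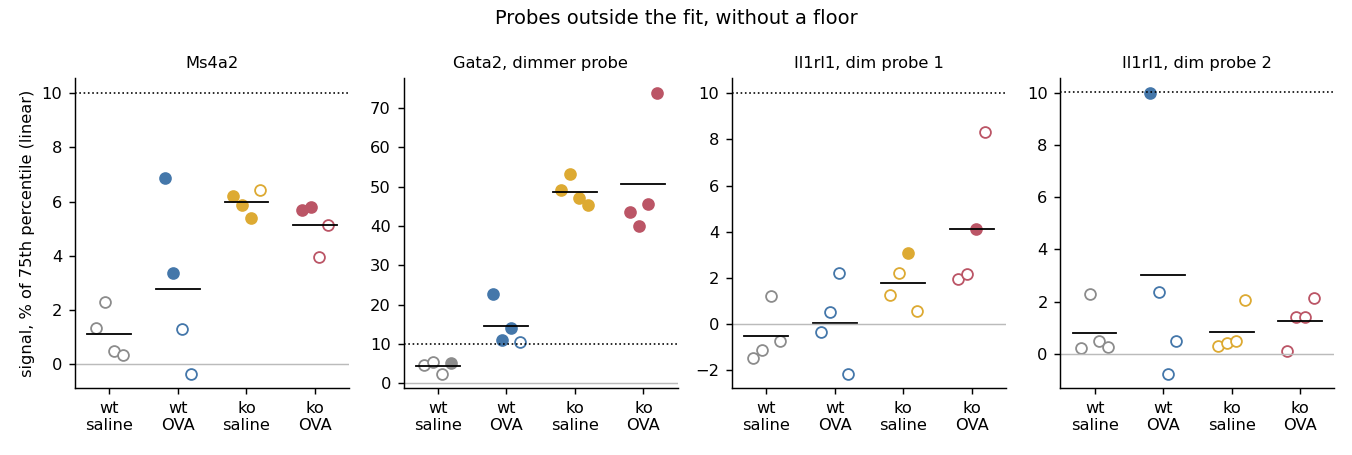
Signal as a percent of the 75th percentile of the array, on a linear axis that differs between panels, for Ms4a2, the dimmer Gata2 probe and the 2 dim Il1rl1 probes, by group. Points are arrays, open where not well above background, bars are means and the dotted line is the floor of the fit. The ko_saline arrays of Ms4a2 lie between 5.40 and 6.43%, above the wt_saline arrays at 0.307 to 2.29%.

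The comparison of ko with wt after OVA asked whether the genotypes still differed in allergic airways. Of the 4 fitted members 3 were called higher in ko (Fcer1a, Il1rl1 and Gata2), against 0.102% of all genes called higher. Fcer1a had the smallest p of all genes, with a difference of 2.57 ± 0.20 (adjusted p = 5.58e-05). Il1rl1 was higher by 2.30 ± 0.32 (adjusted p = 0.0049) and Gata2 by 2.0 ± 0.27 (adjusted p = 0.00311). Mrgprb2 differed by 0.77 ± 0.15 and did not pass (adjusted p = 0.109). Its 4 ko_OVA arrays were all above the wt_OVA arrays and at least 4.89-fold higher. The filter kept its probe through the ko arrays only, so this direction was fixed here too. These values are a description, and a pass of Mrgprb2 under an alternative is no support for a difference. Mrgprb2 passed under 9 of 34 alternatives: without ko_saline 1 (0.77, adjusted p = 0.0337), ko_OVA 3 (0.91, adjusted p = 0.0177) or ko_OVA 4 (1.53, adjusted p = 0.00029), under median scaling (1.03), quantile normalization (0.99) or normexp background correction (0.82), with either lower floor (1.66 and 2.81) and in the series table (1.42). When the fit held only wt_OVA and ko_OVA, Il1rl1 (adjusted p = 0.129) and Gata2 (adjusted p = 0.227) did not pass, nor did they with array position as a block (adjusted p = 0.0867 for each), and Fcer1a alone did. Il1rl1 also missed with slide as a fixed block (adjusted p = 0.0512).

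Slides bear on both comparisons of genotype, since 3 of 4 slides hold arrays of each pair of groups. Within slides, ko minus wt for Il1rl1 was 3.45 to 4.22 after saline and 1.74 to 3.15 after OVA. The ranges were 2.31 to 2.82 and 2.30 to 2.90 for Fcer1a, and 2.28 to 3.18 and 1.60 to 2.58 for Gata2. Mrgprb2 gave 0.67 to 1.31 and 0.35 to 1.17. Il1rl1, Fcer1a and Gata2 were thus higher in ko on every slide that holds both groups. So was Mrgprb2, but with its wt arrays at the floor no other sign was possible. Array position was less balanced than slide, with wt arrays alone at position 2 and ko arrays alone at position 3. After saline the genotypes shared only position 1, and after OVA only position 4. A block for array position can therefore tell it from genotype only in part.

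All 8 ko arrays lay above all 8 wt arrays for Il1rl1, Fcer1a and Gata2, and also for Mrgprb2, for which the filter fixed this, a pattern of 29 genes and transcripts, 0.156% of those tested. For single comparisons, complete separation upward in ko was found for 1.99% of genes after saline and 1.63% after OVA.

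In wt, OVA was set against saline to ask how allergen alone moved these genes. Il1rl1 rose by 2.27 ± 0.32 (adjusted p = 0.00211, and 0.0519 with array position as a block), and 1.56% of all genes were called higher. Gata2 differed by 0.97 ± 0.27 (adjusted p = 0.073) and Fcer1a by 0.58 ± 0.20 (adjusted p = 0.148), and neither passed. Because wt_saline was at the floor for both, these values depend on where the floor lies. With the next lower floor of -4.21, which ko_OVA 4 does not set, both were called, Gata2 at 1.74 (adjusted p = 0.00445) and Fcer1a at 1.29 (adjusted p = 0.00571). Leaving out ko_OVA 4 gave 1.74 (adjusted p = 0.00174) and 1.29 (adjusted p = 0.00808). Gata2 also passed without ko_saline 4 (0.97, adjusted p = 0.0439) and Fcer1a without wt_OVA 2 (0.77, adjusted p = 0.0351). Against the dimmest callable signal and on means of log2 levels, Gata2 was at least 3.88-fold and Fcer1a at least 3.71-fold higher in wt_OVA than in wt_saline. Mrgprb2 was at the floor in both groups.

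Comparing OVA with saline in ko called 0 of the 4 fitted members by limma, against 0.479% of all genes called higher and 0.269% lower. Differences were 0.43 ± 0.32 for Il1rl1 (95% interval -0.27 to 1.12, adjusted p = 0.784) and 0.47 ± 0.20 for Fcer1a (0.05 to 0.89, adjusted p = 0.436). Gata2 had 0.03 (-0.54 to 0.61) and Mrgprb2 -0.11 (-0.44 to 0.22). At an unadjusted 0.05, 1 member passed, Fcer1a (unadjusted p = 0.0322 in limma), beside 9.73% of all genes. The highest ko_OVA levels of Il1rl1 (3.09), Gata2 (0.42) and Mrgprb2 (-2.14) were all on ko_OVA 4, and without that array Gata2 had -0.22.

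Whether OVA acted differently by genotype was tested as an interaction, the OVA effect in ko minus that in wt. It called 0 of 18566 genes, with 569 (3.06%) at an unadjusted p under 0.05. Il1rl1 had -1.84 ± 0.46 (unadjusted p = 0.00125, adjusted p = 0.964 in limma). Gata2 had -0.94 ± 0.38 (unadjusted p = 0.0266, adjusted p = 0.993), Fcer1a -0.11 and Mrgprb2 -0.11. The rise of Il1rl1 with OVA in wt is therefore not shown to differ from its change in ko.

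**Figure D3:**
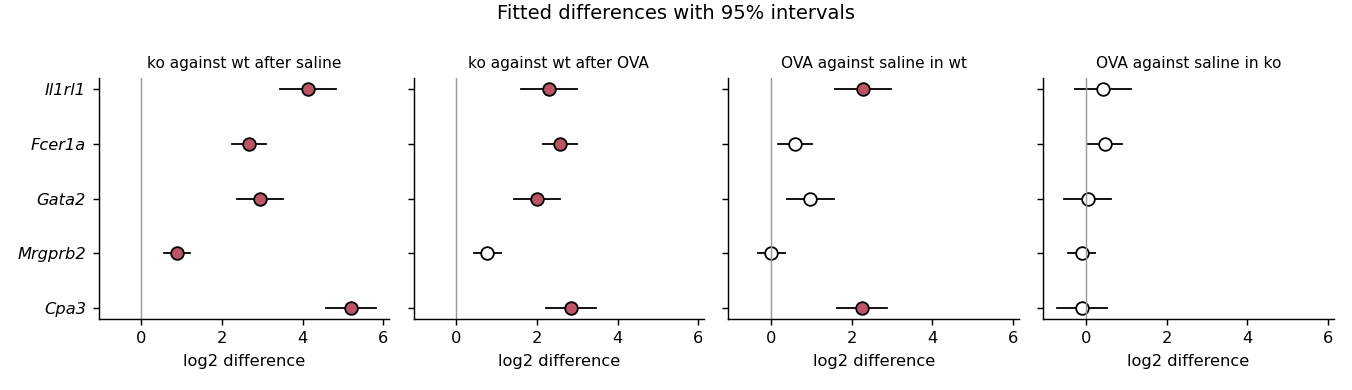
Fitted log2 differences (horizontal axis) with 95% intervals for 4 members and Cpa3 in 4 comparisons. Filled points passed an adjusted p of 0.05. Il1rl1, Fcer1a and Gata2 are filled in both comparisons of ko with wt, Mrgprb2 after saline, Il1rl1 with OVA in wt, and no gene with OVA in ko.

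From lowest to highest, Il1rl1 had group means of -2.41 ± 0.68 (wt_saline), -0.14 ± 0.15 (wt_OVA), 1.73 ± 0.20 (ko_saline) and 2.15 ± 0.66 (ko_OVA), with SD and n = 4 each. Fcer1a followed the same order, with the floor, -2.74 ± 0.42, -0.64 ± 0.32 and -0.17 ± 0.25, and so did Gata2, with the floor, -2.34 ± 0.43, -0.38 ± 0.44 and -0.35 ± 0.52. In each case ko_saline and ko_OVA, neighbours at the top, overlapped and their difference did not pass the test. Mrgprb2 had -2.44 ± 0.29 in ko_saline and -2.55 ± 0.34 in ko_OVA, which overlapped as well.

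Each member was also set against the granule protease Cpa3 on the same array. No change of that difference between groups passed after adjustment, but an exact permutation p for 4 against 4 arrays cannot be under 0.0286. A few changes at that p could not pass over 9 tests, so the lack of a pass does not show that nothing changed. Differences of log2 level from Cpa3 were compared without a floor where a group's signals allowed it, in 9 exact permutation tests. For Il1rl1 it was 0.19 ± 0.34 and 0.06 ± 0.46 in wt after saline and OVA, and -1.02 ± 0.25 and -0.48 ± 0.45 in ko (SD, n = 4). It was lower in ko_saline than in wt_saline by -1.21 with no overlap (exact permutation p = 0.0286, two-sided, 0.129 after adjustment over the 9 tests). Gata2 minus Cpa3 was -2.14 ± 0.31 in wt_OVA and -2.98 ± 0.31 in ko_OVA, a change of -0.84 (exact permutation p = 0.0286, two-sided, 0.129 after adjustment). Mrgprb2 minus Cpa3 was -5.18 ± 0.20 in ko_saline and -5.18 ± 0.25 in ko_OVA.

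**Figure D4:**
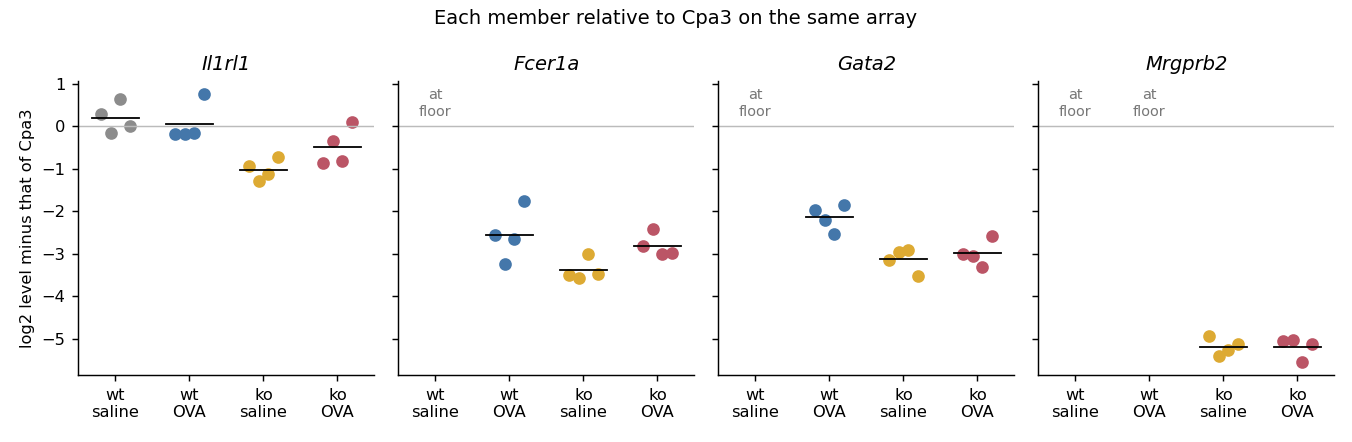
Log2 level of each member minus that of Cpa3 on the same array (vertical axis), by group. Points are arrays and bars are means. Only changes between groups within a panel can be read, since levels of different probes are not comparable. The 4 ko_saline points of Il1rl1 lie between -1.29 and -0.71, under the wt_saline points at -0.16 to 0.63.

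The genes whose profiles over the 16 arrays came closest to each member were found among 12331 genes with a symbol, by the root mean square difference of log2 levels centred on their mean. Il1rl1 was closest to Tpsb2, a tryptase of mast cell granules (0.375), then to the chymase Cma1 (0.539), Cpa3 (0.541), Cma2 (0.618) and the chymase Mcpt4 (0.634). Fcer1a was closest to Gata2 (0.380), then to Chst1, a sulfotransferase (0.407), Slc18a2, which loads amines into granules (0.431), Gpr162 (0.511) and the chemokine gene Ccl2 (0.558). Gata2 was closest to Slc18a2 (0.376), Fcer1a (0.380), Chst1 (0.397), Tph1, which starts serotonin synthesis (0.421), and Ccl2 (0.464). Of the 16 values of each, 5 of Fcer1a and 4 of Gata2 are the floor, so these distances depend in part on it. Mrgprb2 lay nearest to Ndrg1 (0.253), Abcb1b (0.257), Slc12a5 (0.258), Pisd (0.279) and Dph7 (0.284), and 8 of its own 16 values are the floor. The distance of Il1rl1 from Fcer1a was 0.790 and from Gata2 0.737.

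Other genes of the pathways were counted from lists. Of the genes that carry the signal of the IgE receptor, 15 of 18 were fitted and 1 was higher in ko after saline, Lat2, an adaptor of mast cells and other leukocytes. Lat2 had means of -2.82 ± 0.26, -1.83 ± 0.58, -0.69 ± 0.12 and -0.73 ± 0.36 in wt_saline, wt_OVA, ko_saline and ko_OVA. It was higher in ko by 2.13 ± 0.25 after saline (adjusted p = 0.000508) and with OVA in wt by 0.99 ± 0.25 (adjusted p = 0.0499). After OVA ko and wt differed by 1.1 (adjusted p = 0.221). The median of the list after saline was 0.16, beside 0.00 over all genes. Fcer1g, the gamma chain that completes the receptor and is shared with other leukocyte receptors, differed by 0.12 after saline (adjusted p = 1).

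In the IL-33 receptor pathway 0 of 15 fitted genes passed limma's test in either comparison of genotype or of OVA. The co-receptor gene Il1rap had the smallest p of its list in 1 of them, at -0.50 with OVA in ko (adjusted p = 0.289). Il33 itself, the ligand of ST2, had means of -2.31 ± 0.46, -2.40 ± 1.06, -1.32 ± 0.83 and -2.10 ± 0.64 in wt_saline, wt_OVA, ko_saline and ko_OVA. Its difference after saline was 0.98 (adjusted p = 0.851).

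Of the Kit pathway 17 of 19 genes were fitted and 0 passed in any of the 4 comparisons. Kitl, the gene of stem cell factor, had means of 1.54 ± 0.12, 1.08 ± 0.39, 1.46 ± 0.22 and 1.41 ± 0.21, and differed by -0.46 with OVA in wt (adjusted p = 0.195). Other mast cell transcription factors gave 0 of 14 fitted genes in any comparison, beside Gata2. Lyl1, a factor of blood cell progenitors, came closest after saline at 1.0 ± 0.28 (adjusted p = 0.408).

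Of the other Mas-related receptors, 3 of 18 listed were fitted and 0 passed. Mrgprb1, a relative of Mrgprb2 that was under the floor on every array, was well above background on 3 ko_saline and 2 ko_OVA arrays and on 0 wt arrays. Further surface receptors of mast cells gave 0 of 11 fitted genes. Among granule genes 8 of 15 fitted were higher in ko after saline, with a median of 2.09. After OVA 7 were higher and 2 lower, the latter being Mcpt1 (-4.18 ± 0.47, adjusted p = 0.000668) and Mcpt2 (-1.42 ± 0.20, adjusted p = 0.00537), chymases of mucosal mast cells. Hdc, which makes histamine, differed by 0.04 after saline (adjusted p = 1).

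**Figure D5:**
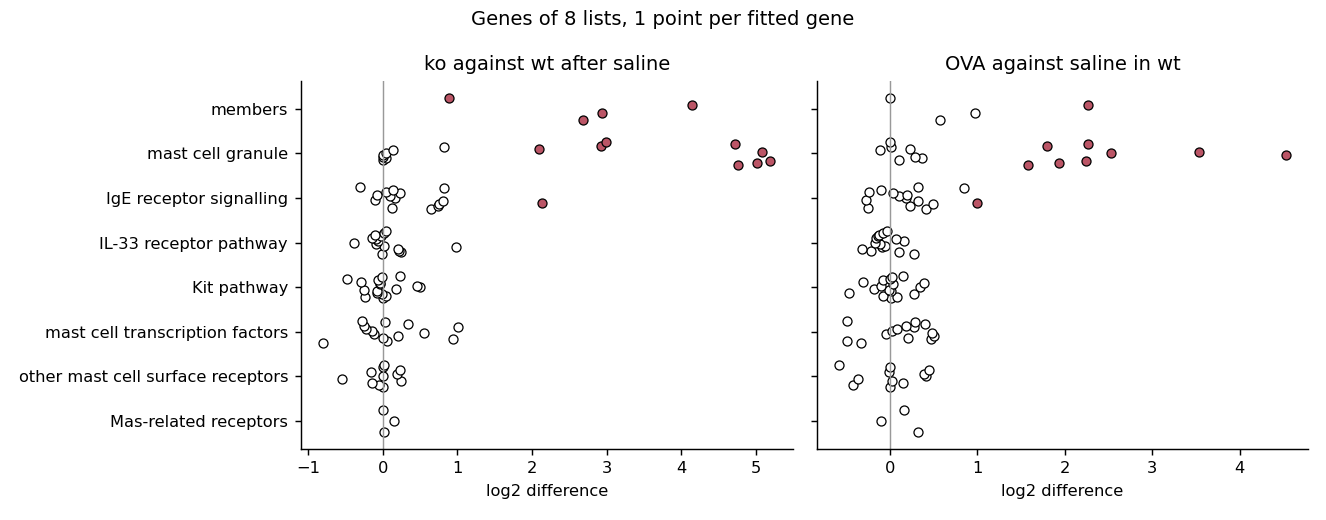
Log2 differences (horizontal axis) of the fitted genes of 8 lists (vertical axis) for ko against wt after saline and for OVA against saline in wt. Each point is a gene, filled where it passed an adjusted p of 0.05. The filled points belong to the members and the granule genes, with Lat2 the only one from the signalling and receptor lists.

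Because basophils, type 2 innate lymphoid cells (ILC2), T cells and progenitors also use some of these genes, their markers were read beside them. The basophil protease Mcpt8 and the basophil receptor Cd200r3 were well above background on 0 of 16 arrays, and Prss34 on 0 of 8 ko arrays. The lymphoid cytokine gene Il5 was not well above background on any array. None of the fitted markers of basophils (2), ILC2 (8), T cells (4), eosinophils (3), haematopoietic progenitors (6), endothelium (5), macrophages and dendritic cells (7), fibroblasts and smooth muscle (7), melanocytes (1) or neuroendocrine and tuft cells (7) was called between genotypes by limma. The summed level of the fitted ILC2 markers was 115 to 155% of the 75th percentile in wt_saline, 129 to 234% in wt_OVA, 137 to 187% in ko_saline and 150 to 189% in ko_OVA. That of progenitor markers was 2308 to 3575% in wt_saline and 2725 to 3295% in ko_saline, and the progenitor and endothelial marker Cd34 differed by 1.08 after saline (adjusted p = 0.245). The summed level of mast cell markers was 3036 to 4354% in wt_saline, 4881 to 5875% in wt_OVA, 7531 to 9736% in ko_saline and 8486 to 12937% in ko_OVA. This sum includes Hdc, which was not called after saline. Of the 7 markers 6 were called higher in ko after saline, with a median log2 difference of 4.72 over the list. After OVA 5 were called higher, with a median of 1.90.

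Striated muscle markers varied most between arrays, with a sum of 71.0% to 25430% and a median difference of 1.88 between genotypes after saline and -1.5 after OVA. With the mean of these markers as a covariate, ko minus wt after saline was 4.19 for Il1rl1, 2.64 for Fcer1a and 2.80 for Gata2, and each was called. Mrgprb2 had 0.93 and was called too, but its direction was set by the filter.

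Summed levels of other marker lists also separated the genotypes after saline, as untested values. The 2 fitted basophil markers, Ccl3 among them, summed to 71.4 to 97.4% of the 75th percentile in wt_saline and to 13.3 to 25.4% in ko_saline, and the eosinophil markers to 42.6 to 129% and 2.42 to 8.52%. Both sums were thus lower in ko_saline with no overlap, opposite in direction to the members. The median log2 difference was -1.17 for the 2 basophil and -0.24 for the 3 eosinophil markers, and 0 of either list were called. A sum follows the brightest markers of its list, so these sums do not show that each list fell as a whole. The sum of macrophage and dendritic cell markers was also lower, at 5204 to 7511% in wt_saline and 4212 to 5143% in ko_saline. Their median log2 difference was 0.00, so the lower sum was not shared by the list as a whole. The sum of endothelial markers was higher without overlap, at 118 to 161% and 166 to 247%, with a median log2 difference of 0.19. Fibroblast and smooth muscle markers, at 1178 to 2713% and 2274 to 4318%, overlapped and had a median log2 difference of 0.44. After OVA the basophil sum was 10.8 to 43.0% on the wt arrays and 8.29 to 620% on the ko arrays, and the eosinophil sum was 40.2 to 72.5% and 3.41 to 226%, with the highest values of both on ko_OVA 4. The part of these cells in the member levels was not tested.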

How the data were processed

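Airway epithelium RNA (0.5 ug) was labelled with Cy3 and hybridized to 16 one-colour 4x44K mouse arrays, per the labels' protocols. The scanner files hold background-subtracted signals in intensity units, made with Feature Extraction 10.5.1.1 per the file headers (10.1 per the submitters' processing notes). Log2 values of the deposited series table served as an alternative. Control and outlier spots were left out, spots of a probe averaged, signals divided by the array's 75th percentile, floored at -3.32 and log2 transformed. Probes well above background on at least 4 arrays and off the floor on at least 1 were kept, with the brightest probe per gene. RefSeq accessions named 24844 of 41174 probes. limma 3.58.1 under R 4.3.3 fitted 1 mean per group over all arrays. The script was tested on simulated data. Probes outside the fit and ratios to Cpa3 used exact permutation tests over arrays. Same-numbered arrays of different groups had correlations of deviations from -0.21 to 0.39, so numbers were not taken as pairs. The number of arrays limits the precision.

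Members, lists and comparisons were chosen with earlier results of these data known. Named genes were the members in every comparison, Itgb6 and Cpa3 as checks, the 5 nearest profiles of each fitted member, up to 3 called genes per list and comparison or the 1 with the smallest p, and the leading markers of each cell type. Fcer1g, Il33, Il5, Mrgprb1 and Pla2r1 were named after their values were seen. Alternatives covered scaling, background, floor, filter, probe rule, blocks, weights and each array left out.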

Additional observations from a re-analysis of the deposited data

Results flagged for a closer look

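Among 28 groups of 4 arrays, those of the 8 member probes without 4 groups wholly at the floor, 4 had an array far from the rest of its group by Dixon's criterion at the 95% level. Chance alone gives about 1 such group in 20. The fitted Gata2 probe stood at -1.04 on ko_saline 4, under the other ko_saline arrays at -0.21 to -0.12. The dimmer Gata2 probe stood at 73.9% of the 75th percentile on ko_OVA 4, above the other ko_OVA arrays. One of the dim Il1rl1 probes stood at 2.28% on wt_saline 2 and at 2.04% on ko_saline 4, in both cases under the floor and not well above background.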

How the results depend on the processing

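In both comparisons of ko with wt, Fcer1a was called under all 34 alternatives, and after saline so were Il1rl1 and Gata2. Mrgprb2 after saline was lost under 17 of 34 and ranged from 0.74 to 4.08. Under the replicate block it was 0.88 (adjusted p = 0.0953), and the block changed no other member's call. Members called after OVA, 3 in the report, numbered 1 with only the groups compared, 1 with array position as a block and 4 under the 9 alternatives that called Mrgprb2. With slide as a fixed block Il1rl1 was lost, while Fcer1a and Gata2 were still called. With OVA in wt, 1 in the report, 2 were called under quantile normalization, 2 under array weights, 3 with the floor not set by ko_OVA 4 (chosen after seeing the data), 4 with the lowest floor and 0 with array position as a block. Leaving out 1 array gave 1 to 3, with 2 without wt_OVA 2 or ko_saline 4 and 3 without ko_OVA 4. Signs turned only for differences that did not pass. With OVA in ko, Gata2 had -0.219 under array weights, -0.0373 with slide as a block and -0.222 to 0.164 with 1 array left out. Mrgprb2 had 0.0282 with array position as a block, 0.0120 in the series table and -0.247 to 0.0308 with 1 array left out. For the interaction, Fcer1a had 0.0722 with array position as a block and -0.879 to 0.0291 with 1 array left out, and Mrgprb2 had -0.247 to 0.0308. The cause of these changes was not tested. Over all genes, calls ran from 15 to 125 (30 in the report) and 7 to 38 (27) between genotypes after saline and OVA, 94 to 1407 (485) and 7 to 328 (139) with OVA in wt and ko, and 0 to 3 for the interaction. Median scaling shifted the median of all genes by 0.32 for ko against wt after OVA, -0.25 for OVA in wt and 0.28 for the interaction. Signals near background limit Ms4a2, Mrgprb2 and the wt levels of Fcer1a and Gata2.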
